A study of Mus musculus with 6 samples.

Results

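Ly86 encodes MD-1, a small secreted protein. It was examined here with 6 genes of its receptor partner, its relative MD-2, CD14 and Toll-like receptors: Cd180, Ly96, Cd14, Tlr2, Tlr4 and Tlr7. These 7 genes, of 18204 in the table, were taken by symbol. Ly86 was chosen because it was much lower in microglia without IDOL, so its difference between genotypes in microglia and over all cells is given as a description, with no test. The other 6 genes were chosen for what their proteins do.

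MD-1 binds RP105, the product of Cd180, a Toll-like receptor relative that lacks the signalling domain inside the cell. MD-2, the product of Ly96, is the matching partner of TLR4: it holds bacterial lipopolysaccharide, which CD14 passes to it. TLR2 recognises bacterial lipoproteins at the cell surface, and TLR7 recognises single-stranded RNA in endosomes. In the brain these receptors are best known from microglia, the resident macrophages of the tissue.

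Hypothalamus of C57BL/6J mice aged 8 weeks was dissociated and run on Drop-seq, in which droplets hold single cells with a bead. The bead marks each captured 3′ end with the barcode of its cell and with a random tag, the unique molecular identifier (UMI), so that copies of a molecule are counted once. The 3 wild-type libraries (WT1, WT2 and WT3) were set against 3 libraries from mice without IDOL (KO1, KO2 and KO3). IDOL, the product of Mylip, is a ubiquitin ligase that sends lipoprotein receptors for degradation. The labels state that libraries of both groups were spread over 2 days but not the day of each, nor whether each library was a separate animal, nor which part of Mylip was deleted, so day and genotype could not be separated and p-values measure the spread between these libraries only.

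After filtering, 9333 of 13994 barcodes were kept, between 1036 and 1946 per library, with 1514439 to 3644549 UMIs per library. Values listed by library follow the order of their numbers, 1 to 3. Mylip was counted with 68, 27 and 43 UMIs in the kept cells of WT and with 2, 0 and 0 UMIs in KO. Cells were named from marker genes that did not include the 7 genes, which were also left out of clustering. Microglia made up 391 cells, 45 to 84 per library, and perivascular macrophages, which lie along blood vessels, 70 cells, 3 to 25 per library. A further 42 cells led by the class II antigen presentation genes Cd74, H2-Ab1 and H2-Aa were named antigen presenting cells, with none in WT3. Across libraries, 3 barcode sequences occurred more than once.

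All 12 markers on the microglia list had UMIs in the cells so named, and the list's summed level was 28400 to 31040 CPM (UMI counts scaled to a class total of 1000000) in WT and 25140 to 30080 CPM in KO. Some libraries carried RNA of other cells in this class. The 8 oligodendrocyte markers, all with UMIs, summed to 1428 to 10020 CPM in WT and 844 to 1572 CPM in KO, with WT1 the highest. The 5 red blood cell markers summed to 58.7 to 114 CPM in WT and 93.8 to 13170 CPM in KO, with KO2 and KO3 the highest. Of the 6 antigen presenting markers, H2-Aa, Ccr7 and Flt3 were at 0 and the sum was 20.9 to 39.1 CPM in WT against 46.7 to 219 CPM in KO. The part of the antigen presenting signal in the results below was not tested. The fold change of Ly86 in microglia was −1.96 on the log2 scale after the 3 microglia with over 5% red blood cell or oligodendrocyte marker UMIs were left out, against −1.92 with them.

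Ly86 lies at chr13:37345208-37419036 on the plus strand (GRCm38, GENCODE M21, protein-coding), and Cd180 lies on the same chromosome at chr13:102693558-102739629, also on the plus strand. The 300 bases around their starts, 250 before and 50 after, are printed because these are the genes of RP105 and of its partner MD-1, compared first below. RefSeq on GRCm38.p6 had such an entry for 3 of the 7 genes (Ly86, Cd180 and Tlr2). Its start of Ly86 differs from that of GENCODE. The capitals mark TGAAAC, 6 letters looked for on both strands after the Ly86 sequence had been read. The Ly86 window is chr13:37345095-37345394 and the Cd180 window, the first of 2 listed, is chr13:102693297-102693596.
Ly86: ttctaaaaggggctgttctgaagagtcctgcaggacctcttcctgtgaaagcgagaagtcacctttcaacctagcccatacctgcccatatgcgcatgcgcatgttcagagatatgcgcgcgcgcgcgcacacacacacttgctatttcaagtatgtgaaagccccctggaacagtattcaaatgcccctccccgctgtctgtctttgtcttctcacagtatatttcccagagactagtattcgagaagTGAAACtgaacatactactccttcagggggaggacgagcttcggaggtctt
Cd180: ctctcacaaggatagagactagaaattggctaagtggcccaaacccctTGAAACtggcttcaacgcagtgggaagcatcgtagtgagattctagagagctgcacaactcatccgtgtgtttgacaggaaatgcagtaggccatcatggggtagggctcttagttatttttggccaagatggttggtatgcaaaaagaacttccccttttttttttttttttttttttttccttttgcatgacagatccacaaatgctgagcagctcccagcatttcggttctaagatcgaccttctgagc
TGAAAC or its reverse complement GTTTCA was present in 12.1% of 32851 promoters of this length. It was in the windows of Ly86, where it spans the start of the transcript, and Cd180, and not in that of Tlr2. GAGGAA, the core letters of many sites bound by the myeloid factor PU.1, was in 28.3% of promoters on either strand and in none of these 3. The sequence TGAAAC does not overlap GAGGAA.

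Ly86 was confined almost wholly to immune cells. Of its 345 UMIs, 83.5% came from microglia and 95.9% from microglia, macrophages and antigen presenting cells together. The 8830 other cells held 14 Ly86 UMIs, or 4.06%. Mean Ly86 over all libraries with such cells was 1055 ± 688 CPM in microglia (SD, n = 6), 837 ± 670 CPM in antigen presenting cells (SD, n = 5) and 537 ± 450 CPM in perivascular macrophages (SD, n = 6), and these SDs hold the difference between genotypes. In every other class the mean was at most 4.22 CPM, the level of ependymal cells. Oligodendrocytes had 0 Ly86 UMIs among 1626525, which allows up to 1.84 CPM.

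**Figure D1:**
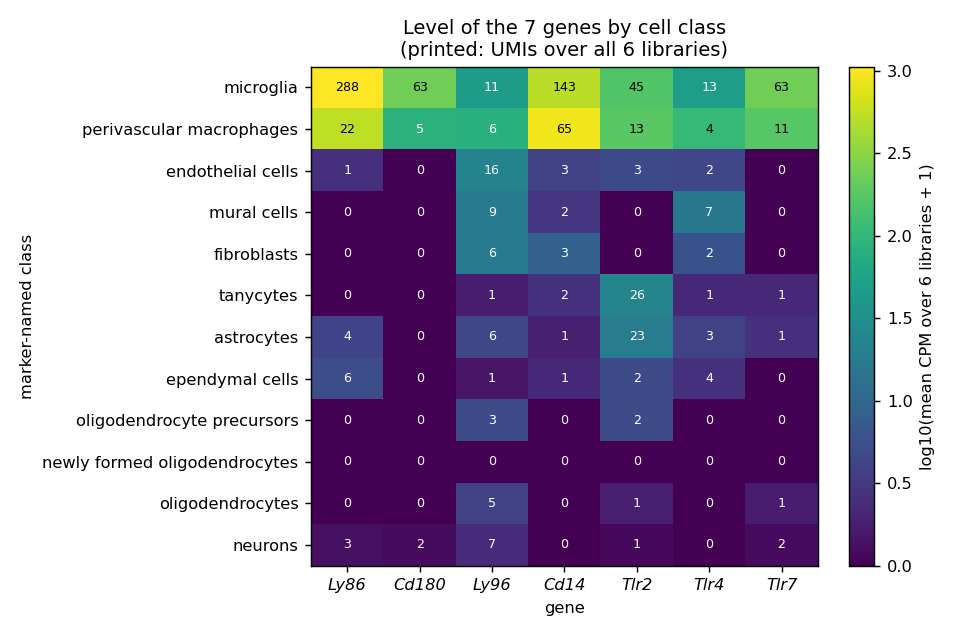
Colour shows the mean level (log10 of CPM + 1, over 6 libraries) of each gene in 12 marker-named classes, and the printed number is the count of UMIs behind it. Read down a column, since levels of different genes are not comparable: Ly86, Cd180, Cd14 and Tlr7 are bright only in the upper pair of rows, and Tlr2 and Ly96 also appear in tanycytes, astrocytes or endothelial cells. Antigen presenting cells are not drawn.

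Microglia had more Ly86 and more Cd180 than macrophages of the same library. The 7 genes were compared over 6 library pairs with a two-sided exact permutation test that flips signs within libraries, on log2(CPM + 10), with no adjustment over the genes. Ly86 was higher in microglia in 6 of 6 libraries by 1.13 ± 0.45 (SD, log2 scale), and p = 0.03125, the smallest this exact test can give. Cd180 was also higher in 6 of 6 libraries, by 2.12 ± 1.99, exact p = 0.03125, and macrophages held only 5 Cd180 UMIs, in 4 of the 6 libraries. Where they held 0, the order and the size of the difference rest on that count of 0 and the added 10 CPM. With any 1 library left out, 5 pairs allow no exact p below 0.0625. Without 2 WT1 macrophages rich in red blood cell and oligodendrocyte RNA, Ly86 alone passed, and with at least 500 genes per cell 0 of the 7 did.

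Cd14, the lipopolysaccharide co-receptor, had the opposite order in most libraries. It averaged 510 ± 85.4 CPM in microglia and 911 ± 509 CPM in macrophages (SD, n = 6), and was lower in microglia in 5 of 6 libraries. The exception was WT3, whose 3 macrophages had 0 Cd14 UMIs, and the exact permutation p was 1. For Ly96, Tlr2, Tlr4 and Tlr7 the exact permutation p lay between 0.25 and 0.9375. Antigen presenting cells, not part of this comparison, averaged 1908 ± 1142 CPM of Cd14 (SD, n = 5).

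In microglia, Ly86 was counted with 70, 64 and 88 UMIs in WT and with 13, 16 and 37 UMIs in KO. Scaled to the class total these were 1461, 1827 and 1720 CPM in WT and 406, 338 and 576 CPM in KO. Every KO library was below every WT library, and KO3 was the highest of the KO libraries. The group means were 1669 ± 188 and 440 ± 122 CPM (SD, n = 3 each), and edgeR's quasi-likelihood fit gave a log2 fold change of −1.92 (SE 0.25, 95% interval −2.45 to −1.39). In that fit 0.138% of 727 genes (1 gene, Ly86) passed an adjusted p of 0.05. Since Ly86 was chosen from this contrast, nothing is read from that call, and the interval takes no account of the choice.

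Fewer KO microglia had a Ly86 UMI, and those that did had fewer. In WT, 117 of 181 microglia had a Ly86 UMI, with a mean of 1.90 UMIs per positive cell. In KO, 55 of 210 had one, with 1.202 UMIs per positive cell. The share of microglia with a UMI was 61.9%, 73.3% and 61.6% in WT and 21.6%, 17.3% and 36.9% in KO. Median depth was 624 to 659 UMIs in WT and 567 to 638 in KO microglia. With each cell thinned to 500 UMIs, which kept 143 WT and 148 KO cells, the shares were 51.4 ± 3.64% and 18.3 ± 7.21% (SD, n = 3). Neurons, which should lack Ly86 and had a median of 1494 UMIs, gave 0.0936% in WT and 0.0781% in KO before thinning and 0% after it. A lower share of cells with the transcript and less of it per cell cannot be told apart at this depth.

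Microglia fell into 2 clusters, and Ly86 was lower in KO in both. The larger, of 222 cells, was rich in the chemokine genes Ccl3 and Ccl4 and had 1672, 2019 and 1605 CPM of Ly86 in WT and 347, 248 and 484 CPM in KO. The other, of 169 cells, had 1250, 1470 and 1899 CPM in WT and 508, 531 and 797 CPM in KO. The ratio of WT to KO means was 4.91 in the first and 2.52 in the second, and the difference between these ratios was not tested. The first cluster made up 54.2 ± 9.39% of WT and 59.4 ± 4.04% of KO microglia (SD, n = 3).

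Of the partner genes, Cd14 was the member that differed most steadily between these clusters. It averaged 615 ± 92.9 CPM in the chemokine-rich cluster and 340 ± 159 CPM in the other (SD, n = 6), and was higher in the first in 6 of 6 libraries. Because the clusters were drawn from the same cells, this has no test. Ly86 was higher in the first in 2 of 6 libraries, Cd180 in 2 of 6, and Tlr7 and Tlr2 in 5 of 6.

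**Figure D2:**
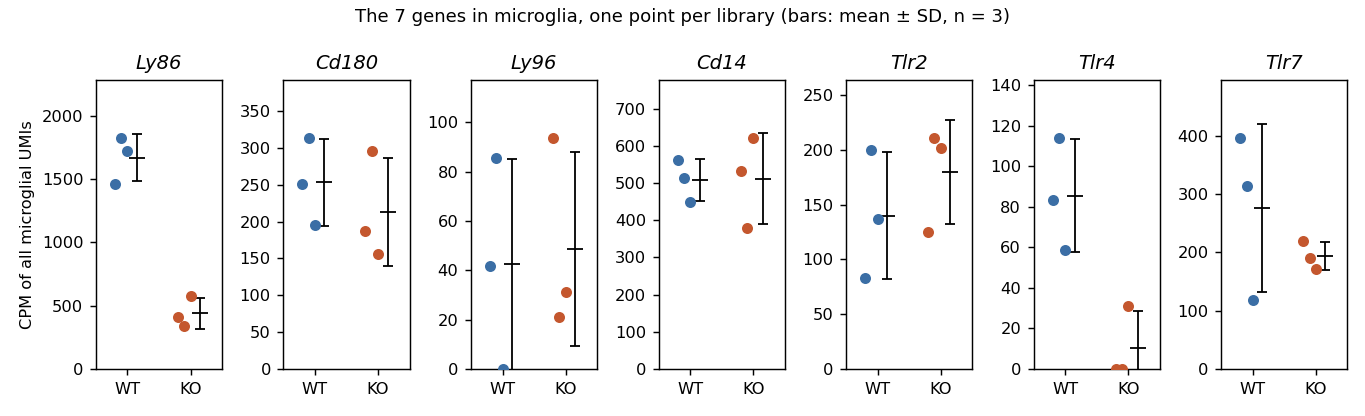
Each point is 1 library, with WT in blue and KO in orange; the vertical axis is CPM of all microglial UMIs, scaled to each gene, and the bar is the mean ± SD (n = 3). The groups are apart for Ly86 (lowest WT 1461, highest KO 576 CPM) and for the sparse Tlr4, and overlap for the other 5 genes.

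Cd180, the receptor gene whose protein MD-1 binds, did not pass the genotype test in microglia. It had 12, 11 and 10 UMIs in microglia of WT1, WT2 and WT3 and 6, 14 and 10 UMIs in KO, or 250, 314 and 196 CPM in WT against 188, 296 and 156 CPM in KO. The groups overlapped, with KO2 above WT1 and WT3. The means were 253 ± 59.4 and 213 ± 73.5 CPM (SD, n = 3), and edgeR gave a log2 fold change of −0.28 (SE 0.40, 95% interval −1.11 to 0.55, Benjamini-Hochberg adjusted p = 0.981 over all genes). The interval includes a log2 fall of 1.11.

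The share of microglia with a Cd180 UMI was 14.7 ± 0.696% in WT and 8.52 ± 3.05% in KO after thinning to 500 UMIs, with no overlap and an exact permutation p of 0.1, the smallest that 3 against 3 libraries allow. Thinned to 300 UMIs, which kept all 391 microglia, the groups overlapped, at 5.71 ± 1.39% and 4.02 ± 1.81%. Among the other partners, shares were apart for Tlr4 at 500 UMIs, lower in KO, and for Tlr2 at 300 UMIs, higher in KO. The exact permutation p was again 0.1 for each. How often thinned shares were apart over all genes was not measured. Of microglia with a Cd180 UMI, pooled over libraries, 20 of 30 in WT and 7 of 25 in KO also had a Ly86 UMI. These pooled shares were close to those of all microglia, where 117 of 181 in WT and 55 of 210 in KO had a Ly86 UMI. Single KO libraries lay on both sides. In KO2, 0 of 11 microglia with a Cd180 UMI had a Ly86 UMI, beside 13 of all 75. It was 2 of 5 in KO1, beside 11 of all 51, and 5 of 9 in KO3, beside 31 of all 84.

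Cd14 had nearly equal means in microglia of both genotypes, 509 ± 57.1 CPM in WT and 512 ± 122 CPM in KO (SD, n = 3). It was 564, 514 and 450 CPM in WT and 532, 380 and 623 CPM in KO. The KO values enclosed all of the WT values. The log2 fold change was −0.02 (SE 0.29, 95% interval −0.62 to 0.58, edgeR adjusted p = 0.997), so that a change past a log2 of 0.62 in either direction was outside the interval.

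Tlr7, the endosomal RNA sensor, was 397, 314 and 117 CPM in WT and 219, 190 and 171 CPM in KO. WT3 lay below all KO libraries and the other WT libraries above them. The log2 fold change was −0.56 (SE 0.44, 95% interval −1.47 to 0.36, edgeR adjusted p = 0.946). With single libraries left out it ranged from −0.96 to −0.11 and did not pass.

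The components of the lipopolysaccharide receptor other than Cd14 were too sparse in microglia for edgeR's filter. Ly96 had 2, 3 and 0 UMIs in WT and 3, 1 and 2 UMIs in KO, 11 in all. Tlr4 had 4, 4 and 3 UMIs in WT and 0, 0 and 2 UMIs in KO, so its groups did not overlap (85.4 ± 27.8 and 10.4 ± 17.97 CPM, SD, n = 3, exact permutation p = 0.1, the smallest possible). The 0 counts allow up to 93.8 CPM in KO1 and 63.4 CPM in KO2, within the range of the WT libraries. Without the filter, edgeR gave Tlr4 a log2 fold change of −2.37 (SE 1.02, adjusted p = 0.834). Among the 727 tested genes, the groups did not overlap for 12.2%, and did so with lower KO values for 5.23%. Tlr4 was not among those genes, and the share for genes as sparse as Tlr4 was not measured.

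Tlr2 also missed the filter, with 83.5, 200 and 137 CPM in WT and 125, 211 and 202 CPM in KO. The groups overlapped, and KO was higher on average, at 180 ± 47.4 against 140 ± 58.3 CPM (SD, n = 3). Without the filter edgeR gave a log2 fold change of 0.46 (SE 0.50, adjusted p = 0.834). In all, none of the 3 partners tested in microglia passed, nor did the other 3 when the filter was removed.

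**Figure D3:**
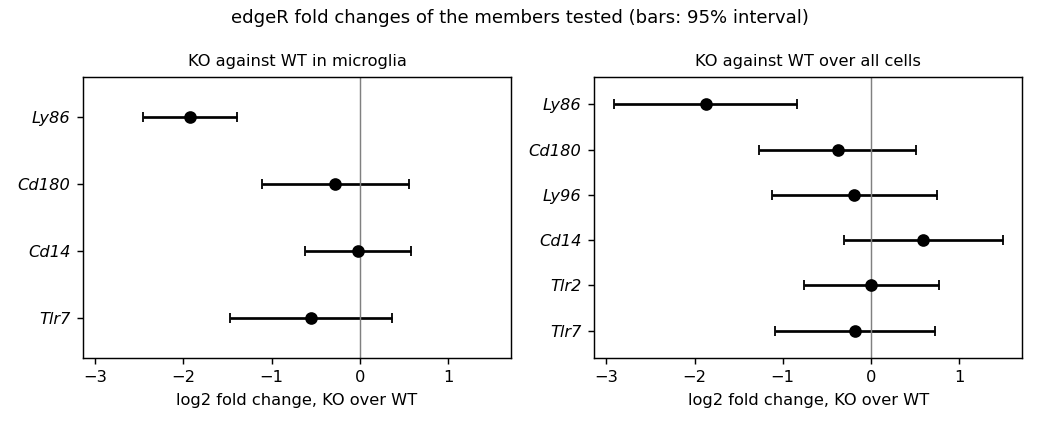
Points are edgeR log2 fold changes of KO over WT for the members that passed the filter, in microglia (left) and over all cells (right), and bars are 95% intervals. Ly86 stands at −1.92 and −1.88, and its intervals take no account of its choice for this difference. The intervals of all other members include 0.

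Ly86 was also lower in KO in cells that were not microglia. Perivascular macrophages had 476, 1024 and 1162 CPM of Ly86 in WT and 205, 95.5 and 262 CPM in KO, from 14 UMIs in WT and 8 in KO. The groups did not overlap, the means were 887 ± 363 and 188 ± 84.8 CPM (SD, n = 3), and the exact permutation p was 0.1, the smallest possible. Among 1010 genes with at least 10 UMIs in macrophages, the groups did not overlap for 12.2%, with lower KO values for 4.36%.

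Of the marker lists summed in these macrophages, only those of fibroblasts and ependymal cells had groups that did not overlap. The exact permutation p was 0.1 for each, the smallest possible, beside 12.2% of the 1010 genes with groups apart. The summed level of 7 fibroblast markers was 1937 to 3073 CPM in WT and 95.5 to 525 CPM in KO, with Col1a1 and Col3a1 at 0. Of 6 ependymal markers, Ccdc153, Tmem212 and 1110017D15Rik were at 0, and the sum was 171 to 387 CPM in WT and 0 in KO. Their part in the Ly86 difference was not tested. Fibroblasts themselves had 0 Ly86 UMIs.

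Antigen presenting cells had 1488 and 1574 CPM in WT1 and WT2, and 193, 202 and 728 CPM in KO. The groups did not overlap, with an exact permutation p of 0.1, the smallest that 2 against 3 libraries allow, and 24.5% of 417 genes with at least 10 UMIs in these cells did not overlap either. These values rest on 4, 7, 1, 1 and 8 UMIs. The 4661 barcodes that the filters or the doublet caller had left out were not clustered and can hold microglia. They are therefore not separate from the contrast for which Ly86 was chosen. These barcodes gave 47.13, 121 and 80.2 CPM in WT and 18.2, 47.12 and 44.8 CPM in KO. There the lowest WT and the highest KO library were nearly equal and the exact permutation p was again 0.1. Groups apart with lower KO values were found for 4.67% of 12312 genes in those barcodes.

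**Figure D4:**
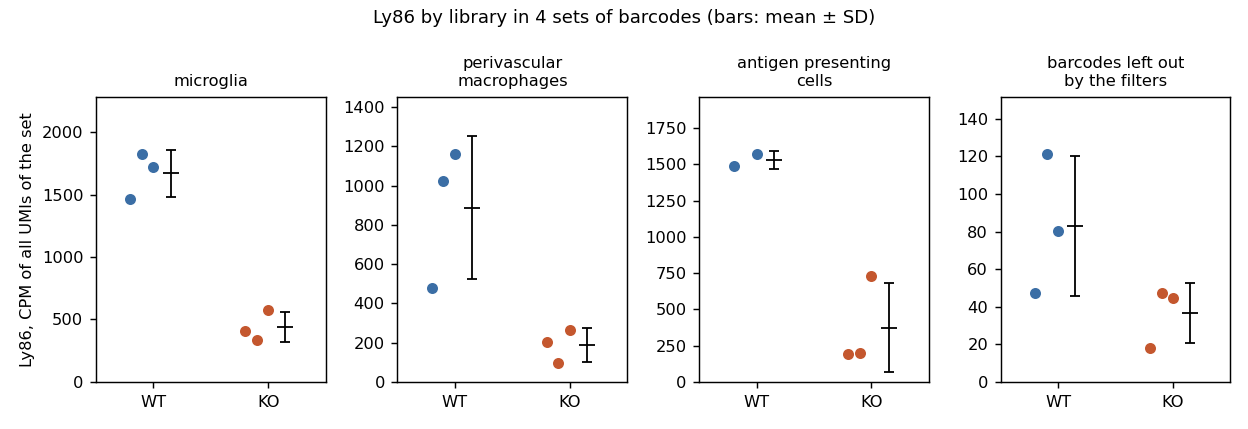
Each point is the Ly86 level of 1 library, in CPM of all UMIs of the set, with WT in blue and KO in orange, and bars are the mean ± SD; the vertical scales differ. KO libraries lie below WT libraries in each set, with almost no gap in the barcodes left out by the filters (47.13 CPM in WT1 and 47.12 CPM in KO2). Those barcodes were not clustered and can hold microglia.

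Of the 6 partners compared in macrophages, none had lower KO values without overlap, as 4.36% of the 1010 genes with at least 10 UMIs did. Cd180, Ly96 and Tlr4 had fewer than 10 UMIs there, and the share for such sparse genes was not measured. Cd14 was 1237, 683 and 0 CPM in WT and 1229, 955 and 1364 CPM in KO, with the groups overlapping and an exact permutation p of 0.3. The share of macrophages with a Cd14 UMI, thinned to 500 UMIs, was 30%, 20% and 0% in WT and 44.4%, 36.4% and 47.4% in KO. These shares were apart, higher in KO, on 18 WT and 39 KO cells (exact permutation p = 0.1, the smallest possible). Thinned to 300 UMIs they overlapped (exact permutation p = 0.3). In CPM, Tlr2, Tlr4, Tlr7 and Cd180 also overlapped, each on 4 to 13 UMIs. Ly96, on 6 UMIs, was higher in KO, at 133 ± 50.4 against 31.7 ± 54.9 CPM (SD, n = 3, exact permutation p = 0.1, the smallest possible).

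Over all kept cells, Ly86 was 42.1 ± 17.0 CPM in WT and 11.1 ± 6.68 CPM in KO (SD, n = 3), a log2 fold change of −1.88 (SE 0.46), and of −2.49 without KO3. In these sums, fewer cells of a type and less RNA per cell cannot be told apart. Cd14 was 14.8 ± 2.10 and 21.8 ± 11.8 CPM, a log2 fold change of 0.60 (SE 0.40, edgeR adjusted p = 0.9997), beside 21 macrophages in WT and 49 in KO. Cd180, Ly96, Tlr2 and Tlr7 had log2 fold changes of −0.38, −0.19, 0.00 and −0.18, each with an edgeR adjusted p of 0.9997. Of 13059 genes tested, 0% passed in edgeR's fit, while 268 (2.05%) had an unadjusted p under 0.05 and DESeq2 called 4, none of them a member. Mylip, the deleted gene, itself missed the threshold in this fit (log2 fold change −6.03, SE 0.65, edgeR adjusted p = 0.0869), while it passed with no gene filter (edgeR adjusted p = 0.0199) and was among the 4 genes called by DESeq2.

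Outside immune cells, 3 of the 7 genes had much of their counts. These were Ly96 with 75.6%, Tlr4 with 52.8% and Tlr2 with 46.1%, against 2.82% for Cd180, 4.40% for Cd14 and 5.95% for Tlr7. A class with more UMIs in all yields more of these counts, and the 8830 cells outside the immune classes held 14547269 UMIs against 277634 in microglia. As CPM, Tlr2, Tlr4 and Ly96 were still higher in microglia than outside immune cells, by 38.5, 34.5 and 11.04 times.

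Tlr2 appeared in tanycytes, the cells that line the floor of the third ventricle, and in astrocytes. Tanycytes had 8, 5 and 1 UMIs in WT and 3, 7 and 2 UMIs in KO, or 22.9 ± 9.12 CPM (SD, n = 6). The values of WT (15.04 to 36.9 CPM) and KO (15.02 to 31.3 CPM) overlapped. Neurons, with 6267087 UMIs, had 1 Tlr2 UMI, so the signal was not spread evenly over all classes.

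In astrocytes Tlr2 was 23.8, 38.6 and 15.1 CPM in WT and 5.79, 11.4 and 13.4 CPM in KO. The groups did not overlap on 23 UMIs (25.8 ± 11.9 and 10.2 ± 3.95 CPM, SD, n = 3, exact permutation p = 0.1, the smallest possible), as for 9.43% of genes with at least 10 UMIs in astrocytes. The share of astrocytes with a UMI, thinned to 500 UMIs, was 1.18 ± 0.811% and 0.710 ± 0.125%, and these overlapped.

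Ly96 was found in cells of blood vessels, though not only there. Fibroblasts had 17.3 ± 16.8 CPM on 6 UMIs, and cells named red blood cells had 48.8 ± 55.5 CPM on 4 UMIs (SD, n = 6). Endothelial cells had 47.4, 26.3 and 28.6 CPM in WT and 0, 9.06 and 19.1 CPM in KO. The groups did not overlap on 16 UMIs (exact permutation p = 0.1, the smallest possible), as for 10.4% of genes with at least 10 UMIs in those cells. The share of endothelial cells with a Ly96 UMI, thinned to 500 UMIs, was 0.775 ± 1.34% in WT and 0.483 ± 0.837% in KO (SD, n = 3). These shares overlapped, as did those thinned to 300 UMIs. The 2 vessel classes were not cleanly apart: a mural cluster of 90 cells also led with the endothelial genes Ly6c1 and Ly6a, and an endothelial cluster of 164 cells with the pericyte genes Rgs5 and Vtn. Cells named mural, for the muscle cells and pericytes of vessel walls, had 9 Ly96 UMIs (16.2 ± 15.1 CPM, SD, n = 6) and 7 Tlr4 UMIs (15.9 ± 12.9 CPM). Ly96 was the only member that edgeR could test in all cells outside the immune classes, with a log2 fold change of −0.52 (SE 0.53, adjusted p = 0.9996).

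Over 14 pairs of a member and a class with at least 10 UMIs and cells in all libraries, the groups did not overlap in 5. These were Ly86 in microglia and in macrophages, Tlr4 in microglia, Tlr2 in astrocytes and Ly96 in endothelial cells, all lower in KO. Ly86 in microglia was chosen for this separation. The groups did not overlap for 12.2% of the 727 genes tested in microglia, which do not include Tlr4. Among genes with at least 10 UMIs they did not overlap for 12.2% in macrophages, 9.43% in astrocytes and 10.4% in endothelial cells. The last 3 pairs rest on 13 to 23 UMIs, and no fit across all genes was made in astrocytes or endothelial cells.

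By level across 14 named classes of at least 20 cells, the genes most like Ly86 were Cd53, Hmha1, Cyth4, Tlr7 and Itgb2. Pearson's r of log2(mean CPM + 10) was 0.998 for Cd53 and 0.997 for the other 4, among 13264 genes compared. All classes came from the same 6 libraries. Cd14 ranked 40th with 0.981, Cd180 86th with 0.958, Tlr2 93rd with 0.948 and Ly96 350th with 0.752.

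In microglia, none of these 5 genes passed the genotype test. Cd53, a tetraspanin of leukocytes, was 529 ± 187 CPM in WT and 681 ± 151 CPM in KO (SD, n = 3), a log2 fold change of 0.30 (SE 0.30, edgeR adjusted p = 0.947). Hmha1 had a log2 fold change of −0.01, Cyth4 of 0.46 and Itgb2, the beta chain of leukocyte integrins, of −0.13, and none passed.

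The wider Toll-like receptor pathway was followed with a list of 79 genes, of which 76 were in the table. In microglia 23 could be tested after the gene filter and 0 passed in either direction in edgeR, with an unadjusted p under 0.05 for 2, against 49 (6.74%) of all 727 genes. Their log2 fold changes were positive for 17 and negative for 6, with a median of 0.13, against 348 positive, 379 negative and a median of −0.01 over all 727 genes. The smallest p values belonged to Nfkbiz, an inducible IκB family protein, at 0.60 (SE 0.23, edgeR adjusted p = 0.528), Cd86, a co-stimulatory molecule, at 0.68 (SE 0.31, edgeR adjusted p = 0.659), and Unc93b1, the chaperone that takes TLR7 to endosomes, at 0.38 (SE 0.24, edgeR adjusted p = 0.883).

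For these 3 genes, picked for their small p values, all KO libraries lay above all WT libraries, and 12.2% of the 727 genes had groups that did not overlap. Nfkbiz was 1251 to 1920 CPM in WT and 2319 to 2833 CPM in KO. Cd86 was 250 to 371 CPM in WT and 436 to 531 CPM in KO. Unc93b1 was 543 to 714 CPM in WT and 782 to 903 CPM in KO. By role, 4 of 5 inhibitors, 6 of 7 target genes, 4 of 6 transcription factors, 1 of 2 adaptors and kinases, 1 of 2 co-receptors and chaperones and 1 of 1 further Toll-like receptors had positive fold changes. Over all cells 59 genes of the list were tested, 46 were positive and 0 passed, with a median of 0.17, against 6723 positive of 13059 and a median of 0.01 over all genes. The smallest p there was that of the target gene Ccl5 (log2 fold change 2.67, SE 0.64, edgeR adjusted p = 0.9997). Ccl5 was 0.549, 2.64 and 0.545 CPM in WT and 10.2, 5.46 and 5.15 CPM in KO. Groups were apart for 7.34% of the 13059 genes. With no gene filter, 13 genes passed in microglia, and the target genes Ccl5 and Cxcl10 were among them.

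Ly86 and Mylip lie on the same chromosome, with starts 8.045 Mb apart, and Mylip is at chr13:45389742-45412022 (GRCm38, GENCODE M21). Of 16 tested genes starting within 2 Mb of Ly86, 0 passed over all cells, in a fit where no gene did, with a median log2 fold change of 0.07. The groups did not overlap for 18.8% of these 16 genes (2 lower and 1 higher in KO), for 25% of 8 genes within 1 Mb and 16.3% of 43 within 5 Mb, against 7.34% of all genes. The nearest tested genes on one side were F13a1 at 1.16 (SE 0.40), a coagulation factor that also marks macrophages and was among the macrophage markers here, and Nrn1 at −0.28 (SE 0.22). Those on the other side were Rreb1 at 0.14 (SE 0.24) and Ssr1 at −0.12 (SE 0.16).

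F13a1 was the only one of the 16 (6.25%, against 2.05% of all genes) with an unadjusted p under 0.05, with 15, 16 and 8 UMIs in WT and 29, 35 and 42 UMIs in KO, beside the larger number of macrophages kept from KO libraries. Within 10 Mb of Mylip 103 genes were tested and 0 passed, with a median of −0.02, and the groups did not overlap for 11.7%. In microglia only 3 genes of that window could be tested, Cd83, Dek and Susd3, with log2 fold changes from −0.06 to 0.35, and 0 passed. The other genes of the window could not be tested in microglia at this depth.

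**Figure D5:**
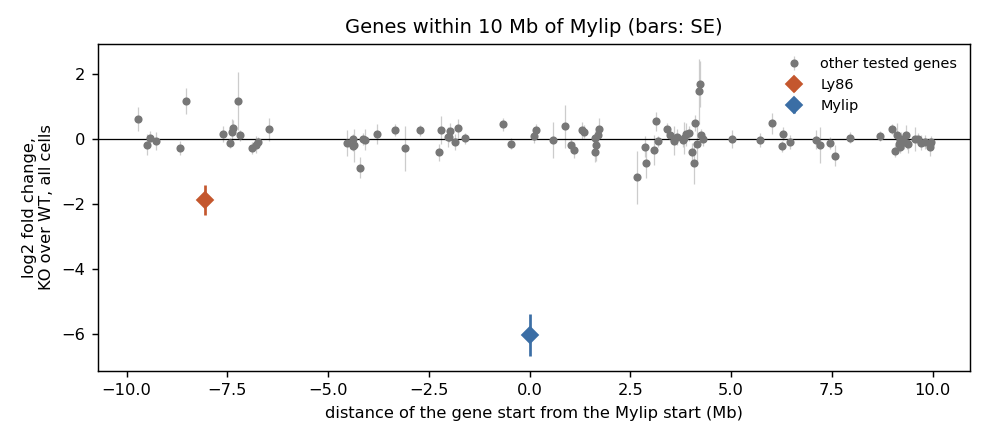
Points are edgeR log2 fold changes of KO over WT over all cells (bars: SE) for tested genes within 10 Mb of Mylip, against the distance of their starts from that of Mylip in Mb. Mylip (−6.03) and Ly86 (−1.88) are the lowest, and the other tested genes have a median of −0.02.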

How the data were processed

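Drop-seq libraries of 6 hypothalamus samples were analysed, 3 per genotype. The authors deposited raw UMI counts per gene symbol and cell barcode in 1 table. Per the submitters' processing notes, bcl2fastq, STAR 2.5.0c and the builds mm10 and GRCm38 were used. The counting program, annotation and strand are not given in the sources used here, so reads of overlapping genes cannot be told apart. Each deposited barcode had at least 200 genes and each gene a UMI in at least 3 cells. Of the symbols, 93.8% matched GENCODE M21, which gave the coordinates.

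Barcodes with at least 300 genes and at most 20% mitochondrial UMIs were kept (9449), and Scrublet (expected rate 5%) removed 116 doublets. The 9333 cells were clustered in scanpy 1.11.5 (2000 variable genes without the 7 members, 30 components, 15 neighbours, Leiden resolution 1), and mixed clusters were split again. Of 39 clusters, 2 with 496 cells stayed unnamed. A class name needed 3 markers at 4-fold, so it means cells like that type. The members, marker and pathway lists and tests were chosen with earlier results of these data known.

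UMI counts were summed per library and class, and given as CPM of all UMIs of that class. edgeR 4.0.16 (R 4.3.3; filterByExpr, TMM, quasi-likelihood F-test, Benjamini-Hochberg at 0.05 over all genes tested) compared genotypes. In simulated data with 200 genes changed 4-fold, it recovered 98% of them among the 727 genes of microglia, with 8 false calls. Among the 13059 genes over all cells it recovered 89%, with 13 false calls. Smaller changes and fewer changed genes were not simulated, so these shares do not apply to the partners. Single members were tested with two-sided exact permutation tests in scipy 1.17.1. The 95% intervals of fold changes come from edgeR's fit and hold the spread between libraries. Limits for a count of 0 (3 counts) cover counting error only. All 7 members were named. The other genes named were the 5 closest to Ly86 by correlation over classes, the pathway genes with the 3 smallest p values in microglia, the 2 nearest tested neighbours on each side and Mylip. Cd83, Dek, Susd3, Ccl5, Cxcl10 and the marker genes were named after their values were seen. Same-numbered libraries had deviations correlated between −0.153 and 0.253, below 0.1 for at least 1 number in each comparison, so the numbers were not treated as pairs. Alternatives were DESeq2 1.42.0, other scaling and filters, other cell naming, a replicate block and leaving out each library.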

Additional observations from a re-analysis of the deposited data

How the results depend on the processing

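The log2 fold change of Ly86 in microglia lay between −2.16 and −1.64 under all 16 alternatives, and over all cells between −2.49 (without KO3) and −1.62 under 13. The macrophage difference of Ly86 stayed negative under 11. No partner tested passed under any alternative (adjusted p from 0.767 to 1). The number of genes passing in microglia, 1 as reported, was 0 with at least 500 genes per cell, 2 with doublets kept, 3 scaled by library size only, 13 with no gene filter and 1 to 7 leaving out each library. The cause was not tested. Over all cells, where 0 passed, 4 did with DESeq2, 1 with no gene filter and 0 to 1 leaving out each library. Outside immune cells these were 4, 2 and 0 to 1. With the replicate number as a block, 4 genes passed in microglia, 1 over all cells and 1 outside immune cells, and no partner did. The labels do not say that a shared number marks a shared day or litter, and same-numbered libraries did not all correlate above 0.1; as a hint from the data, 2 of 6 libraries in microglia and 4 of 6 over all cells correlated best with their own number. Of the 2 members that passed between microglia and macrophages, 0 did with at least 500 genes per cell, 0 to 0 leaving out each library, since 5 pairs allow no exact p below 0.0625, and 1 (Ly86) without cells rich in red blood cell or oligodendrocyte markers, an alternative chosen after seeing the data.

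Fold changes near 0 changed sign without passing. In microglia Cd14 was 0.0030 scaled by library size only, 0.026 with no gene filter, 0.16 without KO2 and 0.095 without WT1, and Cd180 was 0.022 without KO3; leaving out each library gave −0.18 to 0.16 for Cd14 and −0.60 to 0.022 for Cd180. Over all cells Tlr2 was −0.0016 with DESeq2, −0.0025 with at least 500 genes per cell, −0.022 with doublets kept and with the block, −0.0064 scaled by library size, −0.0030 with no gene filter, and −0.22, −0.12 and −0.11 without KO3, WT1 and WT3. Ly96 was 0.028 without KO2 and Tlr7 0.079 without WT2; leaving out each library gave −0.22 to 0.24 for Tlr2, −0.62 to 0.028 for Ly96 and −0.40 to 0.079 for Tlr7. Depth limits these values, since 11 to 63 UMIs lay behind each of Ly96, Tlr4, Tlr2, Cd180 and Tlr7 in microglia.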
